A study of Mus musculus with 8 samples.

Results

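The genes described here mark the oligodendrocyte lineage, the glial cells that form myelin in the brain, and the chromatin around them was read in cultures of cortical neurons. They are 9 genes: the transcription factor genes Olig1, Olig2 and Sox10, the precursor surface genes Pdgfra and Cspg4, and the myelin genes Mbp, Cnp, Mog and Mag. A region belonged to them when it lay within 50 kb of the annotated body of 1 of these genes (GRCm38), and regions in reach of both Olig1 and Olig2 counted once. This gave 81 regions, of 62023 regions over the whole genome. A region had to hold a called peak in at least 1 of the 4 groups, and the rule used no other measured value. The measurement was ATAC-seq, in which the enzyme Tn5 cuts accessible DNA. The cells were primary cortical neurons of mouse embryos at day 16.5 of gestation. There were 4 groups of 2 libraries each. Neurons of the genotype Brg1-cko (BAF53bCre Brg1F/F, here cKO) were taken after 50 mM KCl for 1 h or without KCl (basal), and Brg1 WT neurons (here WT) likewise. KCl depolarises neurons. Cultures for depolarisation were first silenced with 1 µM TTX and 100 µM APV, and the labels do not say whether basal cultures were, nor whether WT neurons carried the Cre. In cKO the Cre follows BAF53b, a gene of the BAF chromatin remodelling complex used by neurons that have left the cell cycle, so any glia or progenitors in the culture are outside the reach of this deletion as it is designed.

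Each group is represented by 1 deposited list of peaks from nucleosome-free fragments, so no value has a replicate error and no test between groups was possible. The lists held 25690 peaks for cKO KCl, 20484 for cKO basal, 20229 for WT KCl and 34061 for WT basal. The most frequent background pileup, a measure of depth, was 8.36 fragments in cKO KCl, 9.47 in cKO basal, 8.23 in WT KCl and 9.30 in WT basal. Regions are peaks of the 4 lists merged where they overlapped by at least 1 bp. The fold given for a peak is the authors' value, the fragment pileup over the local background at the summit, and it ranks peaks within a list only. Fragments at the summit were recovered from the authors' fold and p. Intervals given with shares and ratios are Clopper-Pearson, exact, at 95%, and reflect counting error alone. Below and above a gene mean toward lower and higher coordinates. A peak list offers no check of the Brg1 deletion itself.

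Oligodendrocytes arise from progenitors in which OLIG2 and OLIG1, bHLH transcription factors, act first. SOX10 then drives the myelin genes. Precursors carry the PDGF receptor PDGFRA and the proteoglycan NG2, the product of Cspg4. Mature cells make MBP, which compacts the myelin membrane, the phosphodiesterase CNP, the surface glycoprotein MOG and the adhesion molecule MAG of the layer next to the axon. In mice BRG1, the ATPase of the BAF complex encoded by Smarca4, is known to be recruited by OLIG2 in differentiating oligodendrocytes. In bulk chromatin, open sites in few cells and weakly open sites in many cells cannot be told apart.

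Promoter sequences from RefSeq (GRCm38.p6) matched 6 of the 9 genes, with a window of 250 bases before to 50 after the transcript start. They are shown for Olig2, whose window carried a peak in all 4 lists, for Cnp and Mog, whose windows carried none, and for Gabbr1, a neighbour of Mog with a peak in all 4 lists. Each is written 5′ to 3′ in lower case, and capitals mark matches on either strand to the 8 motifs searched. These were AP-1 (TGANTCA), the cyclic AMP element (TGACGTCA), a pair of SOX motifs (AACAAT and ACAAAG), the E-box CAGCTG, the GC box (GGGCGG), the CCAAT box (CCAAT) and TATAAA.
Olig2, chr16:91225300-91225599, plus strand: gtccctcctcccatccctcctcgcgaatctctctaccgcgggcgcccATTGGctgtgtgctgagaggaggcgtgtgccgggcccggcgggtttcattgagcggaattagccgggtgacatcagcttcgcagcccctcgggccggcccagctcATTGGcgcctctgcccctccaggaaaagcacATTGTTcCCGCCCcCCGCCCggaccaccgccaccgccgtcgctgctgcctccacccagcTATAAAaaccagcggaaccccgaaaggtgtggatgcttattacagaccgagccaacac
Cnp, chr11:100574689-100574988, plus strand: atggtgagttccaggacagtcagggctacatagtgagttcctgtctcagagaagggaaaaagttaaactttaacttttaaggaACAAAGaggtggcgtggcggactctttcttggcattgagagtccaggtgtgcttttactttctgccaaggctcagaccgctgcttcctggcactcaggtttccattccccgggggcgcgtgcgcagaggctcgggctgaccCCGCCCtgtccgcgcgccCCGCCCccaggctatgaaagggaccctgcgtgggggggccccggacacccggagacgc
Mog, chr17:37023349-37023648, minus strand: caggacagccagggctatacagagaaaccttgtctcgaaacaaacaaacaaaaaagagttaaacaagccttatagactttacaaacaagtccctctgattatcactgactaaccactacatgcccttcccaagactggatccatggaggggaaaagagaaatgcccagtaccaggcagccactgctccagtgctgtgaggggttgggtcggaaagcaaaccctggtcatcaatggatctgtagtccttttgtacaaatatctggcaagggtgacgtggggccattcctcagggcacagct
Gabbr1, chr17:37045716-37046015, plus strand: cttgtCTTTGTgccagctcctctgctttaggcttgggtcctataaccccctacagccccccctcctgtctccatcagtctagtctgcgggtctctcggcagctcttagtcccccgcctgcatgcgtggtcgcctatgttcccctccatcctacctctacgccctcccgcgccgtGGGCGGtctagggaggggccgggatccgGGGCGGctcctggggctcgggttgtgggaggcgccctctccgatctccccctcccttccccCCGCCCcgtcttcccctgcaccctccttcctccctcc

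The Olig2 window held 25 CpG dinucleotides, 2 matches to the CCAAT box, 2 to the GC box, 1 to the SOX motif AACAAT and 1 to TATAAA, none of which overlapped. The Gabbr1 window held 18 CpG, 3 GC box matches and 1 match to ACAAAG. The Cnp window held 17 CpG with 2 GC box matches and 1 match to ACAAAG, and the Mog window held 3 CpG and no match. Among all 32851 promoter windows, 37.4% held a CCAAT box, 35.7% a GC box, 13.6% TATAAA, 10.7% AACAAT, 18.7% ACAAAG, 16.3% CAGCTG, 7.81% TGANTCA and 1.79% TGACGTCA. The other members ranged from 17 CpG in Cspg4 and 5 in Pdgfra to between 3 and 6 in the 3 Mag windows. Windows with a peak in all 4 lists had a median of 26 CpG, and windows with a peak in no list a median of 4. Olig2 was the 1 member of 6 with a peak over its promoter window in all 4 lists, as had 19.5% of 27025 genes with such a window. The other 5 had none in any list, as was so for 61.5% of genes. This background of 27025 genes is larger than the 21887 protein-coding genes used below, so it was not limited to them.

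Olig1 and Olig2 were the members whose own ends were open in every group. Olig2 had a peak just before its start (chromosome 16, 91225173 to 91225519), with summits at -0.20 kb from the start in cKO KCl, -0.17 in cKO basal, -0.21 in WT KCl and -0.19 in WT basal. Its fold was 3.70 in cKO KCl, 3.11 in cKO basal, 2.69 in WT KCl and 3.14 in WT basal. The summit held 55 fragments in cKO KCl, 49 in cKO basal, 38 in WT KCl and 55 in WT basal. This peak lay above the list median in every group except WT KCl, where it stood at the 21.4th percentile of its list. The Olig1 peak spanned the lower-coordinate end of the gene (91269537 to 91270046), with a fold of 3.08 in cKO KCl, 3.15 in cKO basal, 2.58 in WT KCl and 3.82 in WT basal. In WT basal a further peak lay inside Olig1 (91270183 to 91270596, fold 2.27, 30 fragments).

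No peak in any list lay within 1 kb of an end of Sox10, Pdgfra, Cspg4, Mog or Mag. A peak at a gene end in all 4 lists was thus found for 2 of 9 members, against 29.0% of all 21887 protein-coding genes, and none in any list for 5 of 9, against 43.1%. Cnp had a peak 0.91 kb inside its start in WT basal (chromosome 11, 100575667 to 100575945, fold 2.53, 39 fragments) and in no other list. Mbp had 1 peak at its lower-coordinate end in cKO basal (chromosome 18, 82475327 to 82475526, fold 2.80) and another, not overlapping it, in WT basal (82475693 to 82475984, fold 2.41). The annotated body of Mbp includes the upstream exons of the Golli transcripts, which neurons also use, so this end is not the start of the myelin transcripts. These cultures are labelled as neurons. Of 12 marker genes of neurons, 4 had a gene-end peak in all 4 lists, which were Tubb3, Map2, Syt1 and Neurod6. Another 4, Rbfox3, Neurod2, Slc17a7 and Gad2, had none in any list. Of 8 astrocyte genes 2 had one in all 4 lists, Slc1a2 and Aldoc, and 2 had none in any list. Of 8 microglia genes 0 had one in all 4 lists, with no gene-end peak in any single list either. Over all protein-coding genes, 29.0% had one in all 4 lists and 43.1% had none.

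**Figure D1:**
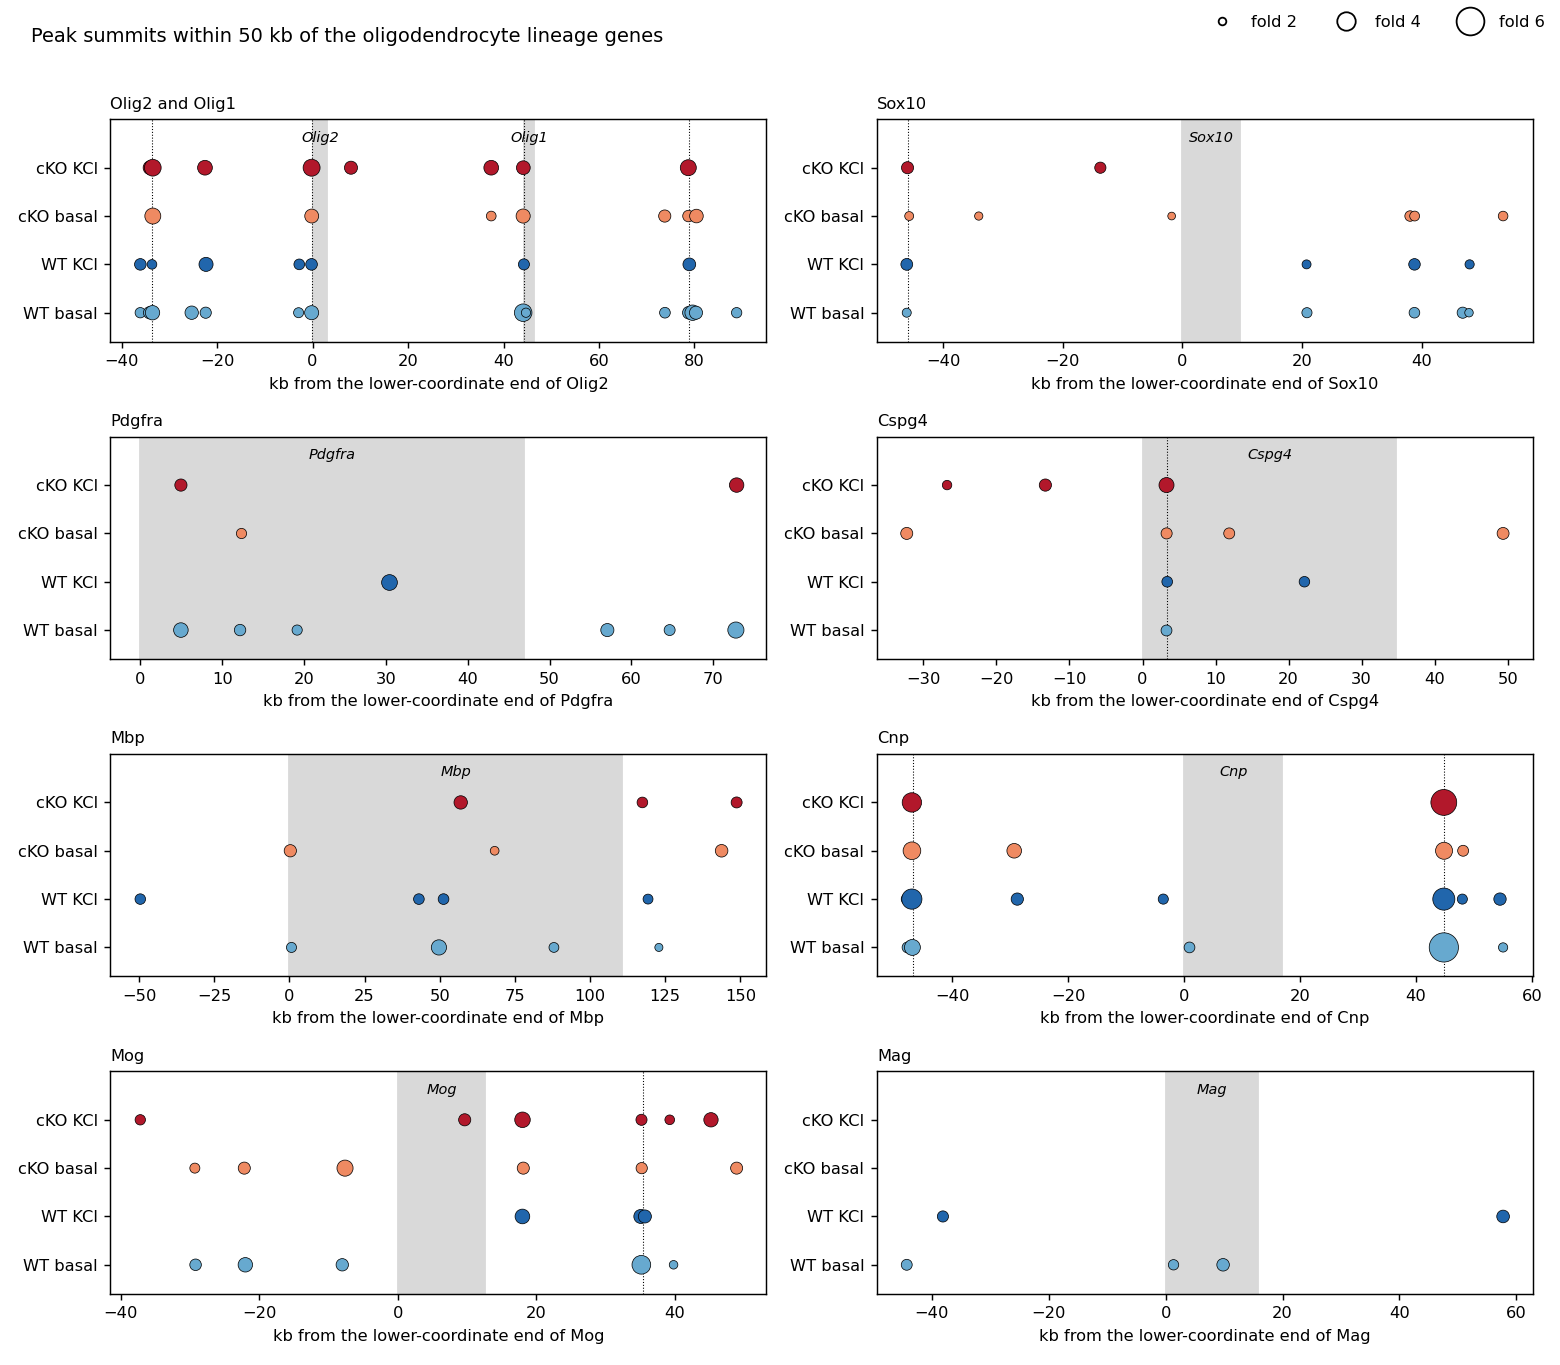
Peak summits within 50 kb of each member, in kb from the lower-coordinate end of the named gene, with 1 row per peak list and circle area growing with the fold over background. Grey bands are gene bodies and dotted lines mark regions with a peak in all 4 lists, of which the Olig1 and Olig2 panel has 4 and the Mbp, Pdgfra and Mag panels have none.

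The Olig1 and Olig2 pair had the highest share of regions open in all 4 lists among the 9 genes. Their 16 regions, 6 of them in reach of both genes, included 4 with a peak in all 4 lists (25.0%, interval 7.27 to 52.4), against 11.6% of all regions, a background inside that interval. Only 5 of the 16 (31.2%, 11.0 to 58.7) had a peak in a single list, against 71.4% of all regions. Besides the ends of both genes, the sites in all lists lay 33.3 kb below Olig2 (91191818 to 91192226) and 32.2 kb above Olig1 (91304143 to 91304629), in the space between genes. The site below Olig2 had a fold of 3.66 in cKO KCl, 3.50 in cKO basal, 2.33 in WT KCl and 3.20 in WT basal. The site above Olig1 had 3.51 in cKO KCl, 2.66 in cKO basal, 2.89 in WT KCl and 2.88 in WT basal. Both were above the list median in cKO KCl and WT basal and below it in WT KCl. A site 22.2 kb below Olig2 (91202877 to 91203355) was missing from cKO basal alone, with 3.27 in cKO KCl, 3.14 in WT KCl and 2.61 in WT basal. Its cKO KCl and WT KCl peaks were joined only through the WT basal peak, which overlaps each.

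Sox10 had no peak at its own ends, and its sites ranked low in their lists. Its 10 regions (chromosome 15) had folds from 2.01 to 2.77, and every one of them stood below the median of its list in each list that held it. The only site in all 4 lists, 45.5 kb below Sox10, was the end of Micall1, an endosomal adaptor gene, with 2.77 in cKO KCl, 2.21 in cKO basal, 2.72 in WT KCl and 2.23 in WT basal, where the cKO basal peak overlapped the cKO KCl peak alone. The site nearest to Sox10, 1.7 kb below it (79152973 to 79153182), had a peak in cKO basal alone (fold 2.01). Above the gene, a site 28.9 kb away (79193428 to 79193861) had 2.37 in cKO basal, 2.67 in WT KCl and 2.51 in WT basal and no peak in cKO KCl. A peak in cKO KCl alone (fold 2.61) lay at the ends of 1700088E04Rik and of Polr2f, an RNA polymerase subunit gene.

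The precursor surface genes had 7 regions each. Around Pdgfra (chromosome 5), 4 of them lay inside the gene and 3 beyond its higher-coordinate end, with none in more than 2 lists. WT basal held 6 of the 7, with folds from 2.43 to 3.54, while cKO KCl held 2, cKO basal 1 and WT KCl 1. The strongest Pdgfra site, 25.8 kb beyond the gene (75223970 to 75224218), had 3.21 in cKO KCl and 3.54 in WT basal. A site inside Pdgfra, 4.03 kb downstream of the start, had 2.79 in cKO KCl and 3.23 in WT basal. Another, 11.38 kb downstream in cKO basal and 11.26 kb in WT basal, had 2.44 in cKO basal and 2.65 in WT basal. The WT KCl peak (fold 3.46) lay elsewhere inside the gene and in no other list.

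Cspg4 (chromosome 9) had 1 site in all lists, inside the gene with summits 3.21 to 3.38 kb from its start (56868153 to 56868632). Its fold was 3.32 in cKO KCl, 2.59 in cKO basal, 2.51 in WT KCl and 2.55 in WT basal. It was above the list median in cKO KCl alone, and it was the sole WT basal region of Cspg4. The other 6 regions each had a peak in a single list, namely 2 in cKO KCl, 3 in cKO basal and 1 in WT KCl, with folds from 2.30 to 2.79. Those outside Cspg4 had Odf3l1 or Snx33 as the nearest gene.

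The 4 myelin genes had 41 regions, of which 33 (80.5%, interval 65.1 to 91.2) had a peak in a single list. The share over all regions, 71.4%, lies inside that interval. Mbp had 14 regions, and not 1 of them was shared by any pair of lists. Each group had 3 or 4 of them, namely 3 in cKO KCl, 3 in cKO basal, 4 in WT KCl and 4 in WT basal, with folds from 2.07 to 3.36 and 22 to 42 fragments. The 1 Mbp region above its list median was in WT basal, inside the gene (82524701 to 82524936, fold 3.36). Of the 14 regions, 5 lay at an end of or inside Zfp236, the neighbouring zinc finger gene. The interval of this single-list share, 14 of 14, is 76.8 to 100%, above the 71.4% of all regions. It treats neighbouring regions as independent and was not adjusted for the number of genes looked at. Mag had 5 regions, 0 of them shared, and none at all in either cKO list. For Mag the interval, 47.8 to 100%, holds the 71.4%. In WT basal 2 peaks lay inside Mag (chromosome 7), with 2.46 and 2.85, and a peak of fold 2.56 lay at the end of the fatty acid receptor gene Ffar3. In WT KCl a peak lay at the end of Ffar1 (2.60) and another at the ends of Lsr and Usf2 (2.87).

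The regions in all 4 lists near Cnp and Mog lay at the ends of other genes. Those near Cnp were the end of Acly, which makes ATP citrate lyase (100527755 to 100528408), and the ends of Dnajc7, a co-chaperone gene, and Nkiras2 (100619263 to 100620205). The Acly site had a fold of 4.19 in cKO KCl, 3.84 in cKO basal, 4.36 in WT KCl and 3.50 in WT basal. The Dnajc7 and Nkiras2 site had 5.57 in cKO KCl, 3.71 in cKO basal, 4.75 in WT KCl and 6.33 in WT basal. It had the highest fold of the 81 regions in 3 lists, and the Acly site had it in cKO basal. Near Mog (chromosome 17) the site in all lists was the end of Gabbr1, a GABA-B receptor subunit gene used by neurons (37045773 to 37046604), with 2.59 in cKO KCl, 2.62 in cKO basal, 3.14 in WT KCl, where it was split into a pair of peaks, and 4.05 in WT basal. A site 5.3 kb upstream of Mog (37028668 to 37029125) had 3.42 in cKO KCl, 2.77 in cKO basal and 3.25 in WT KCl, and no peak in WT basal. Inside Mog there was 1 peak, in cKO KCl (37020343 to 37020565, fold 2.78). A pair of adjacent, non-overlapping peaks lay inside Zfp57, an imprinting regulator gene, with 3.53 in cKO basal and 2.82 in WT basal.

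**Figure D2:**
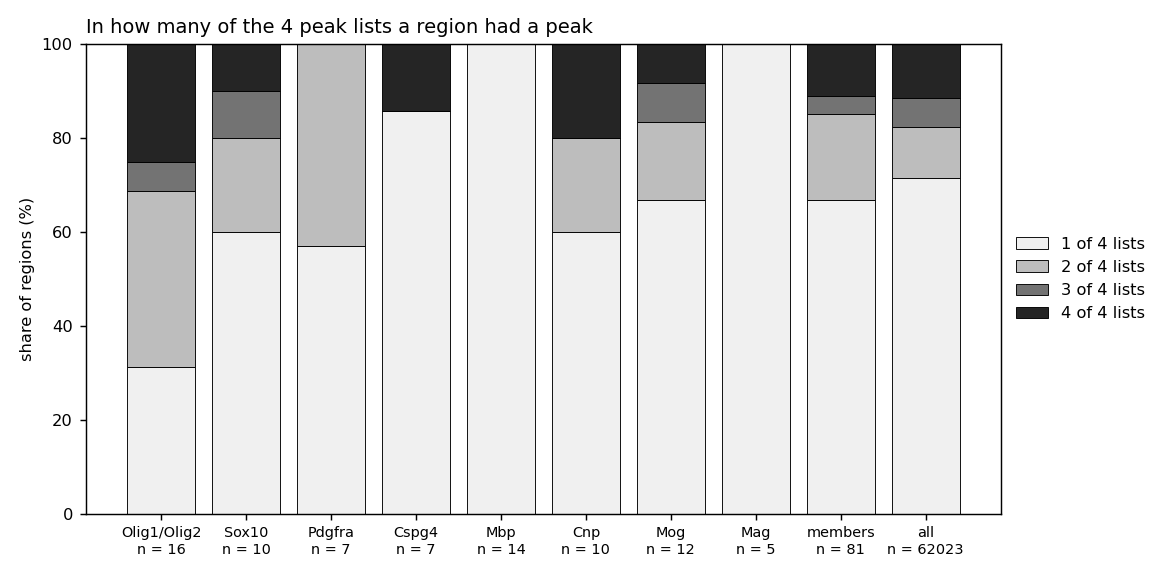
Share of regions, in percent, with a peak in 1, 2, 3 or 4 of the 4 lists, for the Olig1 and Olig2 pair, each other member, all 81 member regions and all 62023 regions. Bars of Mbp (n = 14) and Mag (n = 5) are all single-list, whereas 31.2% of the Olig1 and Olig2 regions are.

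Over all 81 regions, 54 (66.7%, interval 55.3 to 76.8) had a peak in 1 list, 15 (18.5%, 10.8 to 28.7) in 2, 3 (3.70%, 0.770 to 10.4) in 3 and 9 (11.1%, 5.21 to 20.0) in all 4. Among all regions these shares were 71.4%, 11.0%, 6.00% and 11.6%. Of the 9 in all lists, 2 lay at a member's end, 4 at the end of another gene and 3 elsewhere. By position, 6 of the 81 lay at a member's end, 16 inside a member, 14 at another gene's end, 16 inside another gene and 29 between genes. A member was the nearest protein-coding gene for 42. By fold, 12 of 26 in cKO KCl stood above the list median, 8 of 31 in cKO basal, 6 of 29 in WT KCl and 16 of 43 in WT basal. In the top 10% of their list were 1 in cKO KCl, 0 in cKO basal, 2 in WT KCl and 1 in WT basal, all at the ends of Acly or of Dnajc7 and Nkiras2.

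**Figure D3:**
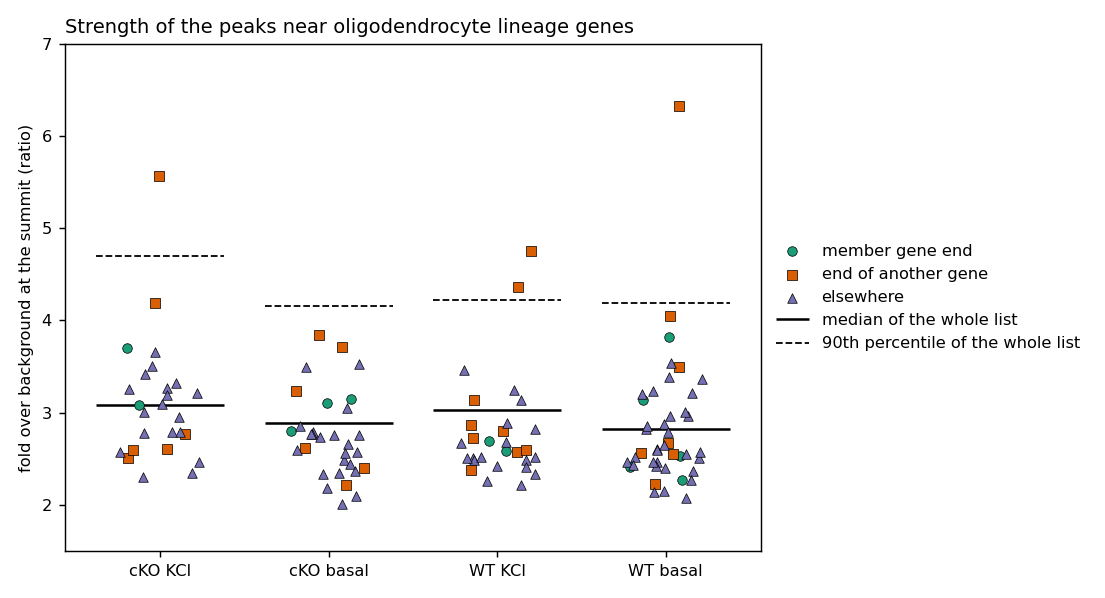
Fold over background at the summit of each member region, by peak list, with symbols for regions at a member's end, at the end of another gene and elsewhere. Solid bars are the median of the whole list (3.08, 2.89, 3.03 and 2.82 from left to right) and dashed bars its 90th percentile, which no member gene end reached.

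The comparison of cKO basal with WT basal asked how these loci differed between the genotypes in unstimulated cultures. Fewer regions in cKO basal were counted for 6 of 9 genes, against 65.8% of the 19062 genes with a region, and more for 3 of 9, against 13.1%. Pdgfra had 1 region in cKO basal and 6 in WT basal, and the cKO basal one was shared. Olig2 had 4 in cKO basal and 9 in WT basal, and Olig1 had 6 in cKO basal and 9 in WT basal. Taken as 1 locus, with regions counted once, the Olig pair had 7 in cKO basal and 14 in WT basal, 6 of them shared. Mag had 0 in cKO basal and 3 in WT basal, Mbp 3 in cKO basal and 4 in WT basal, and Cnp 4 in cKO basal and 5 in WT basal. The other direction was seen for Cspg4 with 4 in cKO basal and 1 in WT basal, and for Sox10 and Mog with 6 in cKO basal and 5 in WT basal each. The median difference was -1.0 regions over the members and -1.0 over all genes. With only regions nearest to a member counted, Cspg4 had 2 in cKO basal and 1 in WT basal. Counted so, Sox10 had 2 in each list, Mog had 1 in cKO basal and 0 in WT basal, and the other 6 genes still had fewer in cKO basal. In all, 31 of the 81 regions had a peak in cKO basal and 43 in WT basal, against 32.0% and 53.8% of all regions. Of these 15 were shared. That is 48.4% of the cKO basal and 34.9% of the WT basal regions, against 52.0% and 31.0% over all regions. The log2 ratio was -0.47 (interval -1.19 to 0.23), and over all regions -0.75. With every list held to its 20229 peaks of lowest p, the count turned to 31 in cKO basal against 24 in WT basal (0.37).

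Setting cKO KCl against WT KCl asked the same of depolarised neurons. More regions in cKO KCl were counted for 5 of 9 genes, against 48.3% of all genes, and fewer for 4 of 9, against 23.2%. Mog had 6 regions in cKO KCl and 2 in WT KCl, and both of the WT KCl regions were shared. Smaller differences in this direction were those of Olig1 with 5 in cKO KCl and 4 in WT KCl, Olig2 with 7 in cKO KCl and 6 in WT KCl, Cspg4 with 3 in cKO KCl and 2 in WT KCl, and Pdgfra with 2 in cKO KCl and 1 in WT KCl. Cnp had 2 in cKO KCl and 7 in WT KCl, and its cKO KCl regions were the Acly site and the Dnajc7 and Nkiras2 site. Sox10 had 2 in cKO KCl and 4 in WT KCl, Mbp 3 in cKO KCl and 4 in WT KCl, and Mag 0 in cKO KCl and 2 in WT KCl. The median difference was 1.0 over the members and 0.0 over all genes. Of the 81 regions, cKO KCl held 26 and WT KCl held 29, against 40.4% and 31.6% of all regions, and 11 were shared. That is 42.3% of the cKO KCl and 37.9% of the WT KCl regions, against 39.3% and 50.1% over all regions. The log2 ratio was -0.16 (interval -0.98 to 0.66), and over all regions 0.35, which lies inside that interval. The sign turned where peaks needed a fold of 3, with 14 regions in cKO KCl and 6 in WT KCl (1.22), or a −log10 q of 3, with 21 in cKO KCl and 20 in WT KCl (0.07). The ratios over all regions at these thresholds were not computed.

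**Figure D4:**
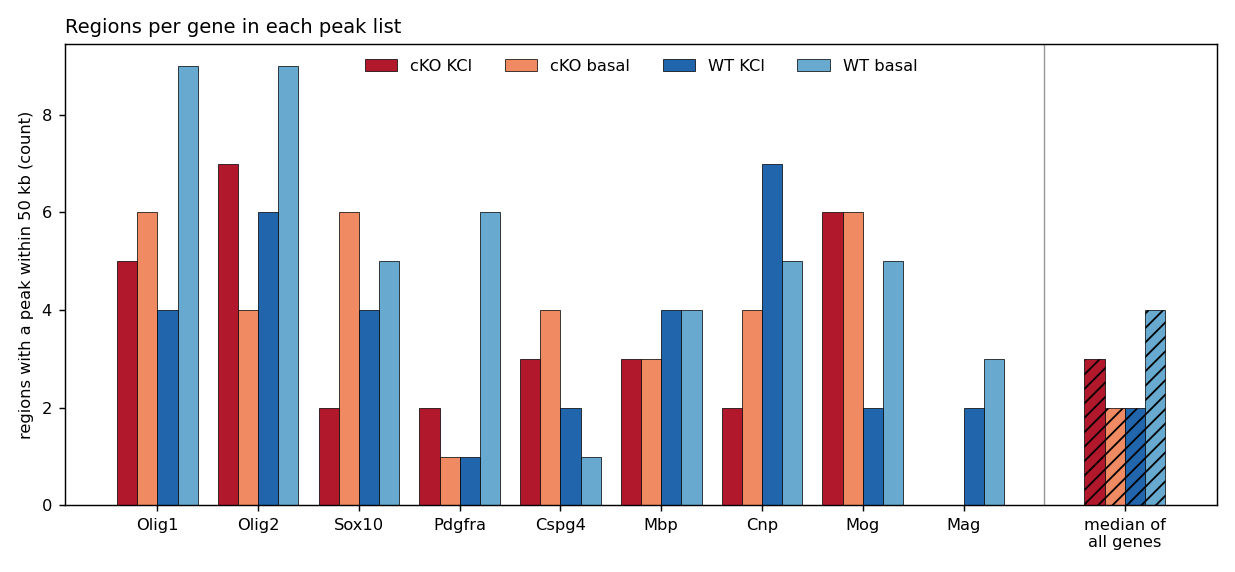
Number of regions with a peak within 50 kb of each member in cKO KCl, cKO basal, WT KCl and WT basal, beside the median over all protein-coding genes with a region (hatched: 3.0, 2.0, 2.0 and 4.0). Olig1 and Olig2 reach 9 in WT basal, and Mag has 0 in both cKO lists.

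WT KCl against WT basal gave the difference after 1 h of depolarisation in WT neurons. Fewer regions in WT KCl were counted for 6 of 9 genes, against 65.6% of all genes, and more for 2 of 9, against 12.9%. Olig1 had 4 regions in WT KCl and 9 in WT basal, Olig2 6 in WT KCl and 9 in WT basal, and Pdgfra 1 in WT KCl and 6 in WT basal. Mog had 2 in WT KCl and 5 in WT basal, Sox10 4 in WT KCl and 5 in WT basal, and Mag 2 in WT KCl and 3 in WT basal. Mbp had 4 in each list. Cnp had 7 in WT KCl and 5 in WT basal, and Cspg4 2 in WT KCl and 1 in WT basal. Over the members, 16 of the 29 WT KCl regions (55.2%) had a peak in WT basal too, close to the 51.8% over all regions. By locus, every WT KCl region of Olig1 and Olig2 (7 of 7) and of Sox10 (4 of 4) did, as did 3 of 7 for Cnp, 1 of 2 for Cspg4, 1 of 2 for Mog, 0 of 1 for Pdgfra, 0 of 2 for Mag and 0 of 4 for Mbp. The members together had 29 regions in WT KCl and 43 in WT basal, a log2 ratio of -0.57 (interval -1.30 to 0.14), and over all regions it was -0.76. At equal list lengths the ratio turned to 0.27, with 29 regions in WT KCl and 24 in WT basal.

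In cKO neurons, cKO KCl and cKO basal were compared in the same way. Fewer regions in cKO KCl were counted for 4 of 9 genes, against 23.0% of all genes, and more for 2 of 9, against 48.5%. Olig2 had 7 regions in cKO KCl and 4 in cKO basal, and all of the cKO basal ones were shared. Pdgfra had 2 in cKO KCl and 1 in cKO basal, with none shared. Sox10 had 2 in cKO KCl and 6 in cKO basal, Cnp 2 in cKO KCl and 4 in cKO basal, Olig1 5 in cKO KCl and 6 in cKO basal, and Cspg4 3 in cKO KCl and 4 in cKO basal. Mbp with 3, Mog with 6 and Mag with 0 had equal numbers in both lists. Over the members 26 regions were in cKO KCl and 31 in cKO basal, and the log2 ratio was -0.25 (interval -1.06 to 0.55). Over all regions it was 0.33, inside that interval. Of the member regions 11 were shared. That is 42.3% of those in cKO KCl and 35.5% of those in cKO basal, against 39.5% and 49.9% over all regions. With a fold of at least 3 the members had 14 regions in cKO KCl and 8 in cKO basal (0.81). The ratio over all regions at this threshold was not computed.

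Few regions followed genotype or treatment in both of their lists. In both WT lists and neither cKO list were 5 of 81 (6.17%, interval 2.03 to 13.8), against 1.86% of all regions. They lay 2.7 kb and 35.9 kb below Olig2, 11.0 kb and 38.2 kb above Sox10, and at the end of Acly (100527035 to 100527354), with folds from 2.22 to 2.68 in WT KCl and from 2.14 to 2.55 in WT basal. The site next to Olig2 (91222451 to 91222886) had 2.52 in WT KCl (34 fragments) and 2.40 in WT basal (40 fragments). In both cKO lists alone was 1 region, against 1.30% of all regions. This site, 6.7 kb below Olig1 (91262665 to 91263106), had folds of 3.26 in cKO KCl and 2.35 in cKO basal. Both KCl lists alone held 0, against 1.35%, and a share of up to 4.45% is within the exact interval. Both basal lists alone held 5 (6.17%, interval 2.03 to 13.8), against 1.96%. They lay 27.3 kb and 33.6 kb above Olig1, inside Pdgfra, inside H2-M5 21.9 kb below Mog, and at the end of 2410137M14Rik 29.1 kb below Mog. Their folds were at most 3.05 in cKO basal and 3.21 in WT basal. The both-WT and both-basal shares thus lay above those over all regions. Their intervals treat neighbouring regions as independent and were not adjusted for the number of patterns. The 5 sites of both WT lists all stood below the median fold of each list.

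Other genes of the lineage, 29 in number, were counted in the same way, beside the shares of all genes with a region. In cKO basal against WT basal 17 had fewer regions and 2 more, against 65.8% and 13.1% of all genes. Gal3st1, which sulfates galactolipids of myelin, had 1 in cKO basal and 11 in WT basal, the transcription factor gene Sox8 had 1 in cKO basal and 5 in WT basal, and Tcf7l2, a transcription factor gene of the Wnt pathway, had 4 in cKO basal and 8 in WT basal. In cKO KCl against WT KCl 16 had more and 5 fewer, against 48.3% and 23.2% of all genes. Gal3st1 had 6 in cKO KCl and 1 in WT KCl, the receptor phosphatase gene Ptprz1 had 6 in cKO KCl and 2 in WT KCl, and the myelin gene Opalin had 1 in cKO KCl and 4 in WT KCl. In WT KCl against WT basal 22 had fewer and 3 more, against 65.6% and 12.9% of all genes. The myelin gene Mobp had 2 in WT KCl and 7 in WT basal, and Tcf7l2 had 2 in WT KCl and 8 in WT basal. In cKO KCl against cKO basal 9 had more and 10 fewer, against 48.5% and 23.0% of all genes. Gal3st1 had 6 in cKO KCl and 1 in cKO basal, and Ptprz1 had 6 in cKO KCl and 2 in cKO basal. A gene-end peak in all 4 lists was found for 6 of the 29, against 29.0% of all genes. These were Nkx2-2, a transcription factor gene of the lineage, Ugt8a and Fa2h, which make myelin lipids, Tppp, Lhfpl3 and Ptprz1.

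The same counts were made for marker genes of other cell types. In cKO basal against WT basal, fewer regions were counted for 7 of 12 neuron, 7 of 8 astrocyte and 6 of 8 microglia genes. More were counted for 2 neuron, 0 astrocyte and 2 microglia genes. Over all genes 65.8% had fewer and 13.1% more. In WT KCl against WT basal, fewer were counted for 7 of 12 neuron, 7 of 8 astrocyte and 5 of 8 microglia genes. More were counted for 1 neuron, 1 astrocyte and 1 microglia gene. Over all genes 65.6% had fewer and 12.9% more. In cKO KCl against WT KCl, more were counted for 8 of 12 neuron, 5 of 8 astrocyte and 4 of 8 microglia genes. Fewer were counted for 4 neuron, 0 astrocyte and 3 microglia genes. Over all genes 48.3% had more and 23.2% fewer. In cKO KCl against cKO basal, more were counted for 6 of 12 neuron, 6 of 8 astrocyte and 4 of 8 microglia genes. Fewer were counted for 4 neuron, 2 astrocyte and 3 microglia genes. Over all genes 48.5% had more and 23.0% fewer. The part of cell composition in the member counts was not tested.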

How the data were processed

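Per the submitters' processing notes, Bowtie2 and MACS2 were used on GRCm38 (mm10). Versions, settings, duplicate removal, the Tn5 offset and the way the 2 libraries per group were pooled were not given in the sources used here. Pooled lists hide any difference between libraries. Per the labels, each library came from 50000 cells, and depth was read from the recovered background. The deposited lists give per peak a score, a fold over background (a ratio), the −log10 p and −log10 q, and the summit offset in bp. The 5 mitochondrial peaks per list were left out.

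Peaks were merged and counted with Python 3.11.15, pandas 2.3.3 and SciPy 1.17.1, and the functions were tested on simulated data. A whole-number pileup solved fold and p for 100% of peaks (pseudocount 1, tolerance 0.001 in −log10 p). Gene ends were within 1 kb. All 9 members are named, with every region at their own end, in all lists or in both lists of 1 genotype or treatment, the strongest region, and the 3 other lineage genes of largest change per comparison, of which 1 is not reported here. The members and lists were chosen with earlier results of these data known. No test between groups was made. Alternatives changed the window, the peak threshold, list length, merging and the assignment of regions to genes. Motif search of peaks was not done, since no genome sequence was used here.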

Additional observations from a re-analysis of the deposited data

Results flagged for a closer look

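The difference between the groups was not tested for any of the following, since each group has 1 list. The KCl minus basal number of regions had opposite signs in cKO and WT for 4 genes. It was 3 in cKO and -3 in WT for Olig2, a difference of 6, and 1 in cKO and -5 in WT for Pdgfra, also 6. For Cspg4 it was -1 in cKO and 1 in WT, a difference of -2, and for Cnp -2 in cKO and 2 in WT, a difference of -4. Over all regions the log2 ratio of KCl over basal was 0.33 in cKO and -0.76 in WT. Olig2 and Pdgfra went this way, and Cspg4 and Cnp the other way. The cKO minus WT number had opposite signs after KCl and in basal neurons for 4 genes. It was 1 after KCl and -3 without it for Olig1, a difference of 4, and 1 and -5 for both Olig2 and Pdgfra, a difference of 6 each. For Sox10 it was -2 after KCl and 1 without it, a difference of -3. Over all regions the log2 ratio of cKO over WT was 0.35 after KCl and -0.75 without it. Olig1, Olig2 and Pdgfra went this way, and Sox10 the other way. The share of all genes with opposite signs was not counted. All 4 lists enter each of the 8 differences, among them WT basal, the longest. For Olig2 and for Pdgfra the difference of 6 is the same contrast taken both ways, so the 8 are not all separate. With all lists held to 20229 peaks, the opposite signs ended for 2 of the 8: Olig1 cKO minus WT was 1 after KCl and 0 in basal neurons, and Olig2 KCl minus basal was 3 in cKO and 0 in WT. The other 6 kept opposite signs. Olig2 cKO minus WT was 1 after KCl and -2 without it, and for Sox10 it was -3 after KCl and 4 without it. Pdgfra cKO minus WT was 1 after KCl and -3 without it, and its KCl minus basal number was 1 in cKO and -3 in WT. KCl minus basal was -2 in cKO and 1 in WT for Cspg4, and -2 in cKO and 3 in WT for Cnp.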

How the results depend on the processing

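No paired analysis was possible because each condition has 1 pooled list, and leaving out a replicate could not be run for the same reason. The 4 log2 ratios of member regions were computed under 10 alternatives each, 40 values, of which 35 kept their sign (or gave 0.00, for cKO KCl against WT KCl without ends of other genes) inside the interval of the reported value. The other 5 turned: at equal list lengths cKO basal against WT basal gave 0.37 and WT KCl against WT basal 0.27, and over all regions at equal lengths these ratios were -0.01 each. With a fold of at least 3, cKO KCl against WT KCl gave 1.22 and cKO KCl against cKO basal 0.81. With a −log10 q of at least 3, cKO KCl against WT KCl gave 0.07. The ratios over all regions at these fold and q thresholds were not computed. The equal-length alternative removes peaks from the longer lists by construction, and the cause of the other changes was not tested.

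Of 321 values for single genes, 19 turned in sign and 30 moved beyond the counting interval. With a window of 100 kb they were Olig1 in cKO KCl against cKO basal (2), Sox10 in cKO basal against WT basal (-1) and cKO KCl against WT KCl (1), and Mbp in cKO basal against WT basal (1). With a fold of at least 3 they were Olig1 (1) and Cspg4 (1) in cKO KCl against cKO basal, Mbp in cKO KCl against WT KCl (1), and Cnp (1) and Mog (-1) in cKO basal against WT basal. With a −log10 q of at least 3, Sox10 in cKO basal against WT basal was -2. At equal list lengths Sox10 (2) and Mag (1) turned in WT KCl against WT basal, and Mbp (2) in cKO basal against WT basal. With 10 kb, the gene body alone or a member as the nearest gene, Cspg4 in cKO KCl against WT KCl was -1 each time. Cnp in WT KCl against WT basal was -1 with the gene body alone and with a member nearest, and Mog was 1 with a member nearest.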
